A study of Mus musculus with 20 samples.

Results

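The 9 genes described here belong to the Ly6/uPAR family or were listed with it by name: Psca, Ly6g, Ly6g6c, Ly6c1, Ly6c2, Ly6a, Ly6d, Ly6e and Lypd8. They were taken from the table by gene symbol, and all 9 were found among 19887 genes. The list was drawn up with results of these data in view: Psca, Ly6g and Ly6g6c were selected on their counts in these 20 mice, as genes lower with starch, and the rest by name. Their differences between diets are therefore given as a description without a test, while the other 6 members carry adjusted p-values from the fit over all genes. RNA-seq was carried out on cecum tissue of 20 C57BL/6 mice, 5 on each of 4 diets. All mice received the Total Western Diet (TWD), a rodent diet composed after human intake in the United States, from 3 weeks of age for 6 weeks, and then for a further 3 weeks the TWD with 0, 2, 5 or 10% raw potato starch, a resistant starch (RPS). The mice on 0% RPS stayed on the TWD, so the Western diet is common to every group. Each library is 1 mouse, and mice are numbered 1 to 5 within a diet.

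Ly6/uPAR proteins share a small, cysteine-rich fold of finger-like loops, and most are held on the outer face of the cell membrane by a glycosylphosphatidylinositol (GPI) anchor. Several are known as surface markers of blood cells: Ly6g of neutrophils, the Ly6c pair of monocytes, and Ly6a (Sca-1) of blood stem cells. In the gut, Lypd8 is known as a heavily glycosylated protein of the large intestinal surface that binds flagellated bacteria and keeps them from the inner mucus layer.

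Library totals ran from 14967798 to 42687283 counts, and levels are given as CPM, counts relative to the library size after scaling by TMM, edgeR's correction for composition. A level resting on 3 counts, used here as the floor, came to at most 0.190 CPM. All 9 members passed the filter on low counts among 15348 genes tested. The sum of 8 epithelial markers, which do not tell cecum from other gut, was 9681 to 14469 CPM over the 20 mice. Some readouts of the study were pooled from replicate experiments, and which of these each sequenced mouse came from is not given in the sources used here, so such a batch was not tested. These are bulk samples, so fewer cells of a type and less RNA per cell cannot be told apart.

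Of the 9 members, 7 lie on chromosome 15 within 444 kb (GRCm39, 74586682 to 75030982), while Ly6g6c is on chromosome 17 (35284316 to 35289026, plus strand) and Lypd8 on chromosome 11 (58269863 to 58281554, plus strand). On chromosome 15 the order is Psca (74586682 to 74588918, plus), Ly6d (74633902 to 74635597, minus), Ly6e (74826860 to 74847454, plus), Ly6a (74863840 to 74869880, minus), Ly6c1 (74915847 to 74920686, minus), Ly6c2 (74980003 to 74988467, minus) and Ly6g (75027089 to 75030982, plus). The coding sequences of Ly6c1 and Ly6c2 were 97.7% identical, with 9 of 396 positions different. Ly6a stood at 83.8% and Ly6g at 81.6% identity to Ly6c1, while Psca was at 58.6%. Because the reads were 50 bases long, the likeness of these genes decides how far their counts can be told apart, and the first 75 coding bases of the 4 most alike are shown for that reason. They come from the GENCODE M39 canonical transcripts on GRCm39, are written 5′ to 3′ in the gene's direction, and carry in capitals each base that differs from Ly6c1 at the same position.
Ly6c1: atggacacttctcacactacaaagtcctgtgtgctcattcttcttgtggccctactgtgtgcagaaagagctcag
Ly6c2: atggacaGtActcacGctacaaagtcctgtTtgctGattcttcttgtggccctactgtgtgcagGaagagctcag
Ly6a: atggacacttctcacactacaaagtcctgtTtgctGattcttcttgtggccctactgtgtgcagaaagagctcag
Ly6g: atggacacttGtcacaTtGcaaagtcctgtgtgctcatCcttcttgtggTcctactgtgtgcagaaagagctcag
In this stretch Ly6c2 differs from Ly6c1 at 6 positions, Ly6a at 2 and Ly6g at 5. Over the whole transcript, 37.5% of the 50-base windows of Ly6c1 also occur in another gene, with 24.3% of all its windows found in Ly6c2 and 12% in Ly6a. For Ly6c2 the shared part was 32.4% and for Ly6a 13.3%, most of the latter (11.5%) with the antisense gene Gm28068, which is not in the table, so the counts of these 3 genes are uncertain to the extent that reads were placed in more than one of them. Ly6g shared 0.445% of its windows, and Psca, Ly6g6c, Ly6d, Ly6e and Lypd8 shared none.

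Levels differed widely between members. Lypd8 was the 7th most abundant of all 19887 genes, with a mean of 7170.3 CPM and 0.586% to 0.94% of each library's counts. Per kilobase of transcript, mean levels followed in the order Lypd8 (5558 CPM per kb), Ly6e (48.6), Ly6a (17.8), Ly6c1 (14.8), Ly6g6c (13.7), Ly6d (8.01), Ly6g (2.38), Ly6c2 (1.25) and Psca (0.544). Ly6a, Ly6c1 and Ly6g6c are neighbours in that order with ranges over the 20 mice that overlap. Psca was the least abundant, with 284 counts in all 20 libraries together.

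**Figure D1:**
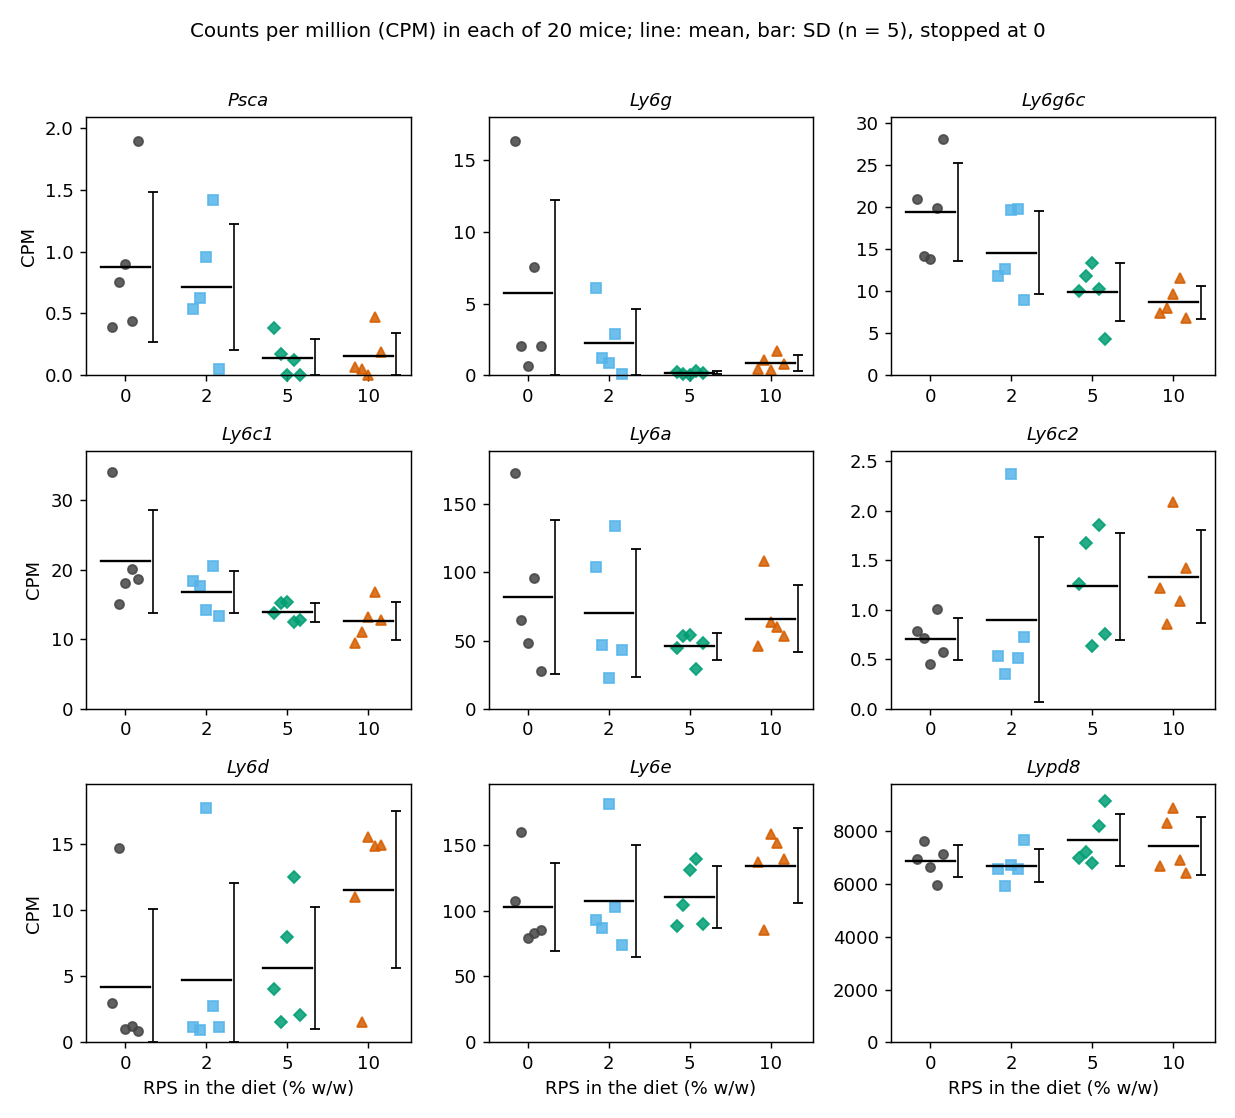
CPM of the 9 members (vertical axes, linear, each on its own scale) in each of 20 mice by percent RPS in the diet, with the mean as a line and the SD as a bar (n = 5, bars stopped at 0). All mice on 5% RPS lie below all mice on 0% RPS for Psca, Ly6g and Ly6g6c, whereas Lypd8 stays between 5925 and 9163 CPM on every diet.

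The 3 members named in the rule as lower with starch are described first. Psca, the prostate stem cell antigen, is a GPI-anchored protein known from prostate, bladder and stomach epithelium. It stood at 0.391, 0.757, 0.900, 0.436 and 1.89 CPM in the mice on 0% RPS and at 0.535, 0.626, 0.959, 1.41 and 0.0465 CPM on 2% RPS. On 5% RPS it was at 0.384, 0.173, 0, 0.126 and 0 CPM, and on 10% RPS at 0.0697, 0.0516, 0, 0.471 and 0.188 CPM. The 5 mice on 5% RPS were all below the 5 on 0% RPS, and 1 mouse on 10% RPS overlapped with them. These levels rest on few reads: 134, 107, 24 and 19 counts per diet from 0 to 10% RPS, with 2 mice at 5% RPS and 3 at 10% RPS at or under the floor. The log2 fold change against 0% RPS was -0.31 (SE 0.699) at 2%, -2.45 (SE 0.811) at 5% and -2.63 (SE 0.834) at 10% RPS. Without mouse 5 on 0% RPS, which held 66 of that diet's 134 counts, the estimate was -2.10 at 10%, -1.93 at 5% and 0.22 at 2% RPS. In the other direction, it was -3.52 at 10% RPS without mouse 4 of that diet and -3.22 at 5% RPS without mouse 1 of that diet.

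Ly6g, whose product is the Ly6G antigen used to label neutrophils, varied widely within the diets. Its levels were 16.3, 2.07, 0.638, 7.55 and 2.07 CPM on 0% RPS and 6.08, 1.22, 0.869, 2.89 and 0.116 CPM on 2% RPS. They were 0.247, 0.115, 0, 0.315 and 0.188 CPM on 5% RPS and 0.453, 1.08, 0.348, 1.70 and 0.750 CPM on 10% RPS. Every mouse on 5% RPS was below every mouse on 0% RPS and also below every mouse on 10% RPS, whereas the 0 and 10% groups overlapped. The lowest level was thus found at the middle dose: the log2 fold change against 0% RPS was -1.40 (SE 0.807) at 2%, -4.91 (SE 1.02) at 5% and -2.74 (SE 0.864) at 10% RPS. Leaving out mouse 1 on 0% RPS, which alone gave 502 of the 868 counts of its diet, moved these to -0.50, -4.02 and -1.85. The change from 5 to 10% RPS was 2.16 on the log2 scale (SE 1.04).

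Other genes typical of neutrophils were counted at low levels in these libraries. Of the 12 neutrophil markers listed, 10 were in the table, none at 0 counts in all mice, and only Csf3r and Mmp9 passed the filter. S100a8 had 34 counts and S100a9 62 counts in all 20 mice together, against 1301 for Ly6g. Cxcr2 had 27 counts, Mpo 10, Camp 23 and Ltf 83, while Csf3r had 832 and Mmp9 3222. The summed level, of which Mmp9 (mean 5.47 CPM) and Csf3r (1.42 CPM) made up nearly all, was 4.39 to 11.6 CPM on 0% RPS, 4.07 to 10.9 on 2%, 6.00 to 8.94 on 5% and 6.03 to 8.63 on 10% RPS, and the means on 0 and 10% RPS, 7.01 and 7.37 CPM, differed by less than the spread (p = 0.817, two-sided exact permutation test, n = 5 and 5). Across the 20 mice the correlation of Ly6g with that sum was -0.06 on the log2 scale, given as a description. With the sum of 8 goblet cell markers it was 0.63 over all mice and 0.67 after each diet's mean was subtracted. The sums of all epithelium, surface colonocyte and GPI anchor markers gave 0.58, 0.58 and 0.56, and within diets 0.44, 0.40 and 0.30. Ly6g was chosen for a fall with starch, which enters each value over all mice. The cells from which its reads came were not tested.

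Ly6g6c lies outside the chromosome 15 cluster, in the class III region of the major histocompatibility complex, and encodes a GPI-anchored family member. It was at 21.0, 14.2, 13.8, 19.98 and 28.1 CPM on 0% RPS and at 11.9, 12.7, 19.7, 19.8 and 9.01 CPM on 2% RPS. The levels were 9.97, 11.9, 13.3, 10.3 and 4.29 CPM on 5% RPS and 7.35, 8.002, 9.73, 11.6 and 6.83 CPM on 10% RPS. All 10 mice on the upper 2 doses were below all 5 mice on 0% RPS, and the 2% group spanned both. The log2 fold change was -0.41 (SE 0.267) at 2%, -0.97 (SE 0.271) at 5% and -1.16 (SE 0.272) at 10% RPS, which is 2.24-fold lower at the highest dose. Leaving out single mice kept the 10% estimate between -1.28 and -0.98. The gene overlaps Mpig6b by 845 bases and Ly6g6d by 7 bases on the opposite strand, and whether reads were counted by strand is not given in the sources used here. Mpig6b was counted at 1.55 to 4.13 CPM and Ly6g6d at 2.47 to 4.27 CPM over the 20 mice, and the mean of Mpig6b was 3.10 CPM on 0% RPS and 2.16 CPM on 10% RPS.

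**Figure D2:**
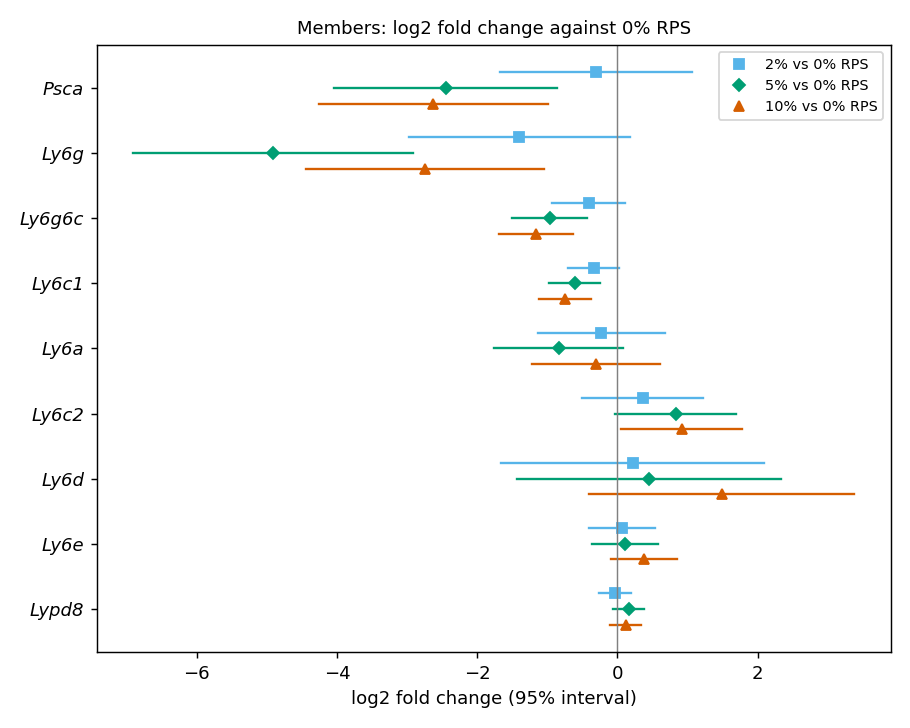
Log2 fold change of each member against 0% RPS (horizontal axis) at 2, 5 and 10% RPS from the fit of 4 diets, with 95% intervals from its SE (n = 5 mice per diet). Psca, Ly6g, Ly6g6c, Ly6c1 and Ly6a lie to the left of 0 at each dose, from -4.91 for Ly6g at 5% RPS to -0.23 for Ly6a at 2% RPS.

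Among the 6 members with a test, Ly6c1 changed with starch. Ly6c1 encodes a Ly6C antigen, found on monocytes and also on endothelium and some T cells. It was at 34.1, 15.1, 18.1, 20.1 and 18.6 CPM on 0% RPS and at 18.4, 17.6, 14.2, 20.5 and 13.4 CPM on 2% RPS. The mice on 5% RPS were at 13.7, 15.2, 15.4, 12.5 and 12.7 CPM and those on 10% RPS at 9.45, 11.1, 13.2, 16.8 and 12.7 CPM. The groups overlapped, with mouse 1 on 0% RPS far above all others and only mouse 4 on 10% RPS above the lowest mouse on 0% RPS. Ly6c1 fell by 0.75 on the log2 scale at 10% RPS (SE 0.187), 1.68-fold, with an adjusted p of 0.0451 by edgeR's quasi-likelihood test. At 5% RPS the estimate was -0.61 (adjusted p = 0.13) and at 2% RPS -0.34 (adjusted p = 0.892). The linear trend was -0.07 on the log2 scale per percent RPS, with an adjusted p of 0.0492, a call that was lost in 15 of 20 fits without 1 mouse (adjusted p from 0.0142 to 0.142), without the filter on low counts (0.0533) and with the B cell marker sum as a covariate (0.0774). The call at 10% RPS sits at the edge of the threshold as well: it was lost in 14 of 20 fits that left out 1 mouse, with estimates from -0.86 to -0.51 and adjusted p from 0.0191 to 0.144. Over the other settings its adjusted p ran from 0.00612 (DESeq2) to 0.104 (only these 2 diets), with the direction kept in each.

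Marker lists of the cells that carry Ly6C were set beside this fall. Of the 10 endothelial markers, all were tested and none passed the threshold at 10% RPS, with 8 estimates below 0 and 2 above (Emcn lowest, at -0.45 on the log2 scale, adjusted p = 0.0706, edgeR). Their sums were 166 to 220.3 CPM on 0% RPS, 170.4 to 252.03 on 2%, 177 to 209 on 5% and 149 to 205 on 10% RPS (p = 0.23, two-sided exact permutation test, n = 5 and 5). The 8 monocyte markers were led by Plac8 at a mean of 751 CPM, a gene that gut epithelium also expresses, and their sum had means of 764 CPM on 0% and 853 CPM on 10% RPS (p = 0.46, two-sided exact permutation test, n = 5 and 5). As a mean of log2 CPM, in which Plac8 weighs no more than the others, the list was higher by 0.91 at 10% RPS (exact permutation test, adjusted p = 0.045), and all 7 markers tested had estimates above 0. Within that list Ccr2, the chemokine receptor of inflammatory monocytes, was higher at 10% RPS by 1.23 on the log2 scale (adjusted p = 0.0235 over all genes, edgeR), the opposite direction to Ly6c1. The correlation of Ly6c1 with the endothelial sum was 0.41 and with the monocyte sum 0.13 over the 20 mice (0.34 each within diets). It was higher with the marker sums of the urokinase system (0.75), goblet cells (0.60), all epithelium (0.55), the GPI anchor (0.50) and surface colonocytes (0.46). Within diets these 5 were 0.52, 0.27, 0.28, -0.02 and 0.05. With the smooth muscle and interferon-stimulated sums it was -0.59 and -0.58. The part of endothelium, monocytes or epithelium in the fall of Ly6c1 was not tested.

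Ly6c2, the near-copy of Ly6c1 and the main Ly6C gene of circulating monocytes, did not pass the threshold and its estimates pointed upward. It ranged from 0.450 to 1.01 CPM on 0% RPS, 0.348 to 2.37 on 2%, 0.634 to 1.86 on 5% and 0.852 to 2.09 on 10% RPS. The log2 fold change was 0.36 (adjusted p = 0.963), 0.83 (adjusted p = 0.434) and 0.91 (SE 0.438, adjusted p = 0.255) at 2, 5 and 10% RPS, by the same edgeR test. The 2% value rests on mouse 3, at 2.37 CPM, without which it was -0.40. Of the counts of the pair, Ly6c2 made up 2.24% to 4.77% in the mice on 0% RPS, 1.94% to 14.3% on 2%, 3.97% to 12.97% on 5% and 6.05% to 13.6% on 10% RPS. This share rises when Ly6c1 falls as well as when Ly6c2 rises, and in Ly6c2 itself the 0 and 10% groups overlapped. Shares of other gene pairs were not computed, so nothing is read from the separation of these ranges. With the counts of both genes summed as one gene, the log2 fold change at 10% RPS was -0.65 (adjusted p = 0.0608, edgeR), which no longer passed the threshold. How reads common to both genes were divided is not given in the sources used here.

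Ly6a, the stem cell antigen Sca-1, which is also induced in damaged gut epithelium, varied more between mice than between diets. Its levels ran from 27.4 to 173 CPM on 0% RPS, 22.3 to 134 on 2%, 29.5 to 54.0 on 5% and 46.0 to 108 on 10% RPS. The log2 fold change at 10% RPS was -0.31 with a 95% interval of -1.22 to 0.60 (adjusted p = 0.763), and it turned to 0.16 without mouse 1 on 0% RPS. At 5% RPS it was -0.84 (adjusted p = 0.47) and at 2% RPS -0.23 (adjusted p = 0.983), all by the edgeR test. The SD on 5% RPS, 9.97 CPM, was smaller than the 56.6 CPM on 0% RPS, a difference that was not tested. Over the 20 mice Ly6a went with the monocyte marker sum, which Plac8 dominates (r = 0.75, and 0.79 after subtracting each diet's mean).

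Ly6d and Ly6e moved together and with lymphocyte genes. Ly6d, a surface marker of early B-lineage cells and of squamous epithelium, was at 2.99, 14.7, 1.01, 1.21 and 0.832 CPM on 0% RPS and at 1.17, 0.939, 17.7, 2.70 and 1.14 CPM on 2% RPS. On 5% RPS it was at 4.06, 1.497, 7.93, 12.5 and 2.03 CPM and on 10% RPS at 10.9, 1.497, 15.5, 14.8 and 14.9 CPM. Low and high mice occurred on every diet: 1 of 5 mice was above 10 CPM at 0%, 1 at 2%, 1 at 5% and 4 at 10% RPS. The log2 fold change at 10% RPS was 1.49 (SE 0.965, adjusted p = 0.411), and at 5 and 2% RPS it was 0.45 (adjusted p = 0.904) and 0.21 (adjusted p = 0.99). Without mouse 2 on 0% RPS the 10% estimate rose to 2.93 and the 5% estimate to 1.89, and the adjusted p at 10% was then 0.0971. The 2% estimate became -1.45 without mouse 3 of that diet.

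Ly6e, a widely expressed member induced by interferon and retinoic acid in other tissues, was the most abundant after Lypd8. It ranged from 79.1 to 159 CPM on 0% RPS, 74.0 to 181 on 2%, 88.0 to 139 on 5% and 85.5 to 158 on 10% RPS. The estimates were 0.06 (adjusted p = 0.99), 0.10 (adjusted p = 0.913) and 0.38 (adjusted p = 0.389) at 2, 5 and 10% RPS in the edgeR test, the last with an interval of -0.09 to 0.85. The highest mice on 0 and 2% RPS were those that also held the highest Ly6d, mouse 2 and mouse 3. Over the 20 mice the correlation between Ly6d and Ly6e was 0.94, both before and after subtracting each diet's mean.

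The sum of 6 B cell markers, which all passed the filter, was 4.96 to 203 CPM on 0% RPS, 3.20 to 285 on 2%, 7.40 to 129 on 5% and 14.3 to 273 on 10% RPS. It was above 100 CPM in mouse 2 on 0%, mouse 3 on 2%, mice 3 and 4 on 5% and 4 of 5 mice on 10% RPS. Its mean was 52.8 CPM on 0% and 199 CPM on 10% RPS (p = 0.0397, two-sided exact permutation test, n = 5 and 5, adjusted 0.0964 over 17 marker lists). Ly6d followed this sum with r = 0.97, and Ly6e followed it with r = 0.88 and the sum of 7 T cell markers with r = 0.94. When the log2 B cell sum entered the edgeR fit as a covariate, an alternative added after the data were seen, the 10% estimate was 0.05 for Ly6d (adjusted p = 0.936), -0.04 for Ly6e (adjusted p = 0.914) and 0.33 for Ly6c2 (adjusted p = 0.702). That of Ly6c1 was -0.74 with an adjusted p of 0.0789, and those of Psca, Ly6g and Ly6g6c were -2.86, -2.66 and -1.35. The B cell sum was measured after the diets and its mean differed between them. Because Ly6d and Ly6e followed it so closely, their estimates were bound to shrink in this fit. The part of B cells in the level of any member was not tested. For stratified squamous epithelium, the other known site of Ly6d, 9 of 10 markers were in the table and 3 passed the filter, with a sum of 5.32 to 11.8 CPM over the 20 mice. Its defining genes Krt5 and Trp63 had 46 and 34 counts in all mice together, while Dsg3 had 3919.

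**Figure D3:**
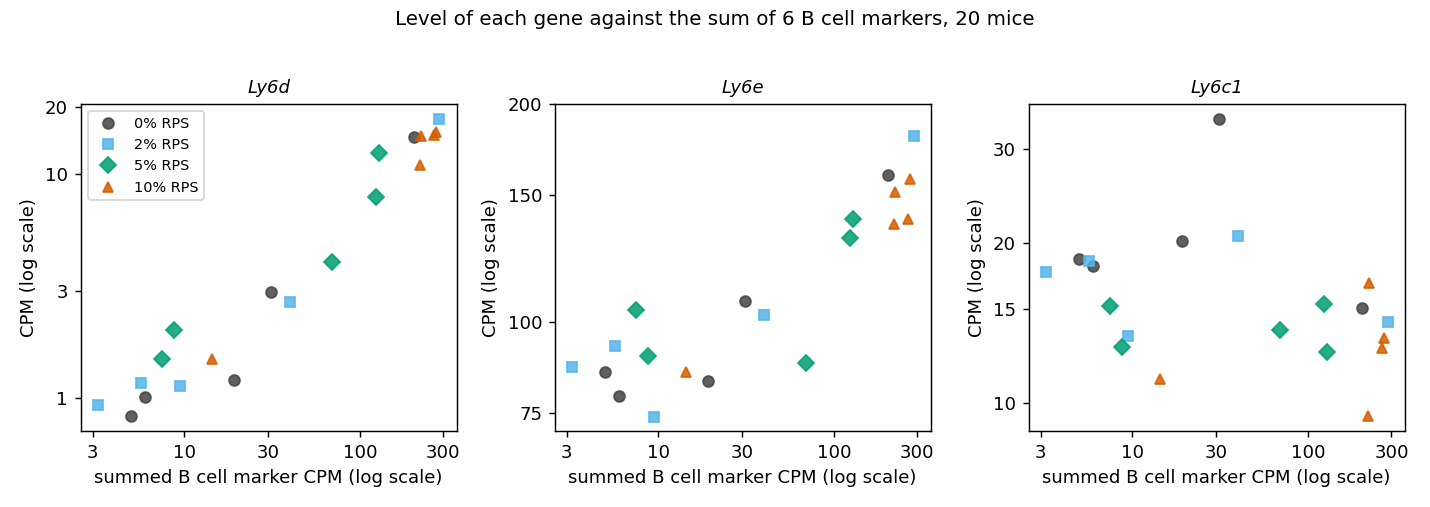
CPM of Ly6d, Ly6e and Ly6c1 (vertical axes, log scale) against the summed CPM of 6 B cell markers (horizontal axes, log scale) in 20 mice, marked by diet. Over all mice Ly6d runs from 0.832 to 17.7 CPM along the marker sum (r = 0.97), whereas r for Ly6c1 is -0.33.

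Lypd8 did not pass the threshold at any dose. It was at 6941, 7627, 6651, 5974 and 7126 CPM on 0% RPS and at 6573, 5925, 6727, 6586 and 7664 CPM on 2% RPS. The mice on 5% RPS were at 6988, 7209.6, 6819.9, 8209 and 9163 CPM and those on 10% RPS at 6690.3, 8314, 8894, 6898 and 6427 CPM. All 4 groups overlapped. The log2 fold change was -0.04 at 2% (interval -0.26 to 0.19, adjusted p = 0.99), 0.16 at 5% (interval -0.06 to 0.38, adjusted p = 0.592) and 0.12 at 10% RPS (interval -0.11 to 0.34, adjusted p = 0.609), in the edgeR test. A change beyond the 1.5-fold threshold of the study's methods therefore lay outside each interval. Over the same mice the sum of 8 goblet cell markers had means of 11124 CPM on 0% and 7715 CPM on 10% RPS (p = 0.00794, two-sided exact permutation test, n = 5 and 5, the smallest p these groups allow, adjusted 0.045 over 17 lists). This call was lost in 6 of 10 cases that left out 1 mouse. The sum of 9 surface colonocyte markers was 37736 and 30568 CPM (exact permutation p = 0.0397, adjusted 0.0964), of which Car1 alone made up a mean of 21146 CPM. Of these markers 5 had estimates below 0 and 4 above, and Slc26a3, a chloride exchanger, was higher past the threshold (0.61 on the log2 scale, adjusted p = 0.0487, edgeR).

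The sum of 6 smooth muscle markers was 2441 to 5668 CPM on 0% RPS (mean 3479) and had a mean of 5416 CPM on 10% RPS, with a range of 3993 to 6694 (exact permutation p = 0.0397, adjusted 0.0964). All 6 estimates were above 0, and Actg2, a smooth muscle actin, was past the threshold (1.28 on the log2 scale, adjusted p = 0.0358, edgeR). All 8 epithelial markers had estimates below 0 and none passed the threshold, with mean sums of 12522 and 10844 CPM (exact permutation p = 0.0952, adjusted 0.162). The correlation with the smooth muscle sum was -0.66 for Ly6g, -0.65 for Psca, -0.59 for Ly6c1 and -0.49 for Ly6g6c, and within diets -0.37, -0.37, -0.30 and -0.06. It was -0.49 for Ly6a and 0.57 for Lypd8, and within diets -0.47 and 0.45. The part of the makeup of the tissue in the lower levels of these genes was not tested.

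Of the 6 members with a test, 1, Ly6c1, passed an adjusted p of 0.05 and a fold change of 1.5 at 10% RPS, where 1.04% of all 15348 genes did so and 0.495% were lower. None of the 6 passed at 5% RPS (0.195% of all genes), although Ly6c1 had an unadjusted p under 0.05 in edgeR (13.3% of all genes), and DESeq2 called none of them there. At 2% RPS none passed (0% of all genes), none had an unadjusted p under 0.05 (5.77% of all genes) and DESeq2 called none. For 10% against 5% RPS no member passed (0% of all genes), 0 had an unadjusted p under 0.05 (2.79% of all genes) and DESeq2 called 0. Of the 6, the linear trend was past an adjusted p of 0.05 for Ly6c1 (1.11% of all genes). Groups that did not overlap occurred among the 3 selected genes alone: they were lower for all 3 at 5% RPS (2.04% of all genes) and for Ly6g6c at 10% RPS (3.2% of all genes), and higher for Ly6g at 10% than at 5% RPS (0.254% of all genes). Since the rule used these contrasts, nothing is read from these counts. The median log2 fold change of the 6 members that were not selected on these counts was 0.25 at 10%, 0.13 at 5% and 0.01 at 2% RPS, beside 0.00, -0.00 and 0.00 over all genes.

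Members were also compared by how they varied over the 20 mice. Psca, Ly6g, Ly6g6c and Ly6c1 correlated with each other at 0.54 to 0.74 (Pearson r of log2 CPM), and Ly6c2, Ly6d and Ly6e at 0.62 to 0.94. After each diet's mean was subtracted, the first set ran from 0.17 to 0.59 and the second from 0.54 to 0.94. Ly6a crossed these sets: it correlated with Ly6g at 0.58 and with Ly6c1 at 0.51, and within diets at 0.58 and 0.61, while r with Psca was 0.00 and with Ly6g6c 0.10. All pairs share the same libraries and the diets, and these values are a description. For Lypd8 r was -0.58 with Psca, -0.49 with Ly6g6c, -0.42 with Ly6c1 and -0.40 with Ly6g, and within diets -0.44, -0.35, -0.27 and -0.18. Psca, Ly6g and Ly6g6c were chosen for a fall with starch, which enters each pooled r with them. Psca also ran against the sum of 12 interferon-stimulated genes, at -0.81 over all mice and -0.69 within diets.

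**Figure D4:**
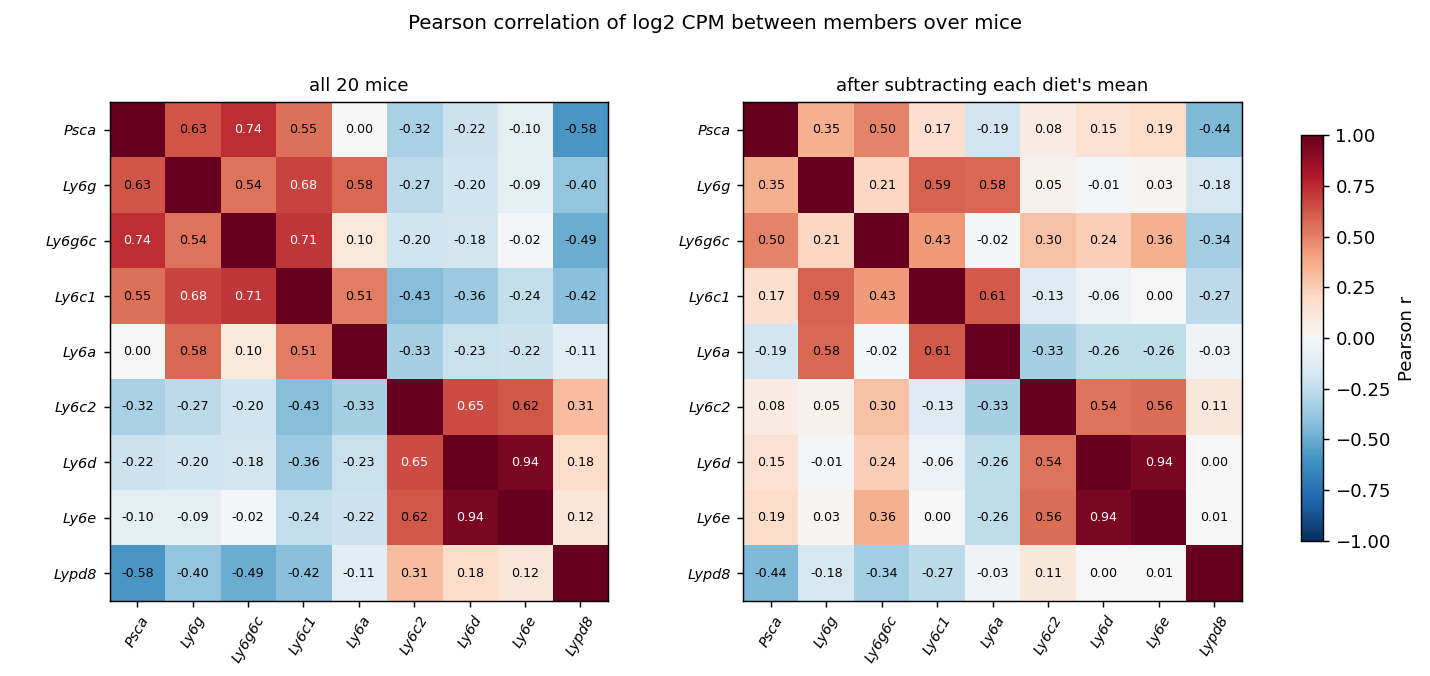
Pearson correlation of log2 CPM between each pair of members over all 20 mice (left) and after subtracting each diet's mean (right), on a colour scale from -1 to 1. Ly6d and Ly6e stand at 0.94 in both panels, while Psca and Ly6c1 go from 0.55 to 0.17.

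The 5 genes whose log2 CPM was most like each of 6 members over the 20 mice were read off by Pearson correlation. For Psca they were Pfkp, an isoform of the glycolytic enzyme phosphofructokinase (r = 0.97), Ckmt1, a mitochondrial creatine kinase (0.94), Creb3l3, a membrane-bound transcription factor (0.92), Bcas1 (0.91) and the lactate transporter Slc16a3 (0.91). Within diets Pfkp stayed at 0.94 and Slc16a3 at 0.93. For Ly6g the list was B3gnt7, a glycosyltransferase (0.90), Il1rn, the antagonist of the interleukin-1 receptor (0.88), Nt5c1a (0.88), Ttc39a (0.86) and the retinol dehydrogenase Dhrs9 (0.85). Dhrs9 stood second for Ly6c1 as well, at 0.87, after Gpat3 (0.87) and before Galnt3, Sec1 and Trim15 (0.86 to 0.85). Ly6g6c was most like Ulk3 (0.90), the glucose transporter Slc2a1 (0.86), Slc4a11 (0.86), Pkp4 and Rce1 (0.84 each). The neighbours of Ly6d were H2-DMb2, which helps to load MHC class II molecules, Napsa, Il21r, Hcls1 and Arhgap45, all at 0.99. For Lypd8 they were the deiodinase Dio1 (0.81), the carbonic anhydrase Car4 (0.79), the membrane mucin Muc13 (0.78), Sectm1b (0.77) and Pakap (0.76).

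The 250 bases before the transcript start were searched on both strands for 5 letter patterns, and TATAAA was found for Psca, Ly6g, Ly6g6c and Ly6c1 and for 0 of the other 5. Ly6a is among those without it, although its estimates were also below 0 at each dose and it correlated with Ly6g and Ly6c1. Over 17681 promoters of the same length, 9.3% held it. The grouping was made after the levels were seen, and a match is a description of letters and no site. Only these exact letters were searched for, so the near form TATATAA in the window of Lypd8 was not counted. The stretches of 80 bases around each match are shown with the match in capitals (GRCm39, 5′ to 3′ in the gene's direction), so that they can be compared. They lie at chr15:74920810-74920889 on the minus strand for Ly6c1, chr15:74586601-74586680 for Psca, chr15:75026951-75027030 for Ly6g and chr17:35286211-35286290 for Ly6g6c, these 3 on the plus strand, and none holds an annotated exon base.
Ly6c1: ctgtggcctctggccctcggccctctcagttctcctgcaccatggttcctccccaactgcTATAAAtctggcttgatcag
Ly6g: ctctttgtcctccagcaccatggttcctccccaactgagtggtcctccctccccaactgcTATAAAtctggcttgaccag
Psca: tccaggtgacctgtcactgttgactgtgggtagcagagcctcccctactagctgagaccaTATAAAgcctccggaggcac
Ly6g6c: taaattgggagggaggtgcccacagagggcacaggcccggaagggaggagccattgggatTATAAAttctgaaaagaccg
The match begins 166 bases before the start for Ly6c1, 78 for Ly6g, 30 for Ly6g6c and 21 for Psca. Laid side by side without gaps, the Ly6g stretch is identical to that of Ly6c1 at 47 of 80 bases, with a longest run of 29, against 24 for Psca and 23 for Ly6g6c. A pattern of the NF-kB type was found for 5 of 9 members (19.9% of all promoters). A pattern of the interferon-stimulated response element was found for 1, Ly6d (3.16%). TTCNNNGAA (6.97%) and TGANTCA (5.24%) were found for none, which says only that these letters are not in this window. The matches of different patterns did not overlap in the members' windows.

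The other genes of the family were taken from a list made by nomenclature. Of 52 listed, 30 were in the table, 3 of them without a count, and 18 passed the filter. At 10% RPS 1 was higher and 1 lower past the threshold, where 1.04% of all genes passed it. None passed at 5% RPS (0.195% of all genes), with 8 at an unadjusted p under 0.05 in edgeR (13.3% of all genes) and 4 called by DESeq2 (1.41% of the genes it gave an adjusted p). None passed at 2% RPS (0% of all genes), with 2 at an unadjusted p under 0.05 (5.77% of all genes) and 0 called by DESeq2 (0.027%). The median log2 fold change at 10% RPS was -0.02 over the 18.

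Plaur, the receptor of urokinase and a family member with several such domains, was at 50.6, 24.3, 27.3, 33.5 and 40.4 CPM on 0% RPS and at 6.73, 5.73, 14.2, 19.2 and 18.4 CPM on 10% RPS. No mouse on 10% RPS reached the lowest mouse on 0% RPS, and the 5% group, at 7.77 to 17.2 CPM, was also below, which held for 3.2% and 2.04% of all genes. It fell by 1.46 on the log2 scale at 10% RPS (SE 0.346, adjusted p = 0.0376, edgeR), with -1.63 at 5% (adjusted p = 0.0534). Its call at 10% RPS was lost with only these 2 diets in the fit, without the filter on low counts, with the B cell marker sum as a covariate, and in 7 of 20 fits that left out 1 mouse (mouse 1, 3, 4 or 5 on 0% RPS or mouse 1, 2 or 3 on 10% RPS). The summed urokinase system markers ran in the same direction, from a mean of 49.5 CPM on 0% to 29.6 CPM on 10% RPS (p = 0.00794, two-sided exact permutation test, n = 5 and 5, adjusted 0.045), led by Plau, the protease itself, which fell by 1.26 on the log2 scale (adjusted p = 0.00818, edgeR). The call for the sum was lost in 6 of 10 cases that left out 1 mouse.

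Ly6g2 was higher at 10% RPS. It was at 11.8, 8.76, 11.5, 5.44 and 8.41 CPM on 0% RPS, 12.2 to 18.2 CPM on 2%, 8.15 to 20.7 CPM on 5% and 18.6, 22.0, 22.7, 14.0 and 23.2 CPM on 10% RPS. The 2 and 10% groups were wholly above the 0% group, which held for 0.417% and 1.68% of all genes. The difference at 10% RPS was 1.13 on the log2 scale (SE 0.229, adjusted p = 0.0251, edgeR), a call that was lost in 5 of 20 fits without 1 mouse (mouse 4 or 5 on 0% RPS or mouse 1, 2 or 3 on 10% RPS). The estimates at 5 and 2% were 0.89 (adjusted p = 0.0839) and 0.79 (adjusted p = 0.712). Named for their level were also Ly6m, Cd59a and Ly6g6e. Ly6m, at a mean of 101.3 CPM per kb, was at 151 to 507 CPM on 0% and 72.1 to 204 CPM on 10% RPS (1.999-fold lower, adjusted p = 0.232). Cd59a, a brake on the complement membrane attack complex, was higher by estimate at 0.55 (adjusted p = 0.0684), with all mice on 10% RPS above all on 0% RPS. Ly6g6e, a neighbour of Ly6g6c on chromosome 17, was at -0.37 (adjusted p = 0.278), all by edgeR.

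**Figure D5:**
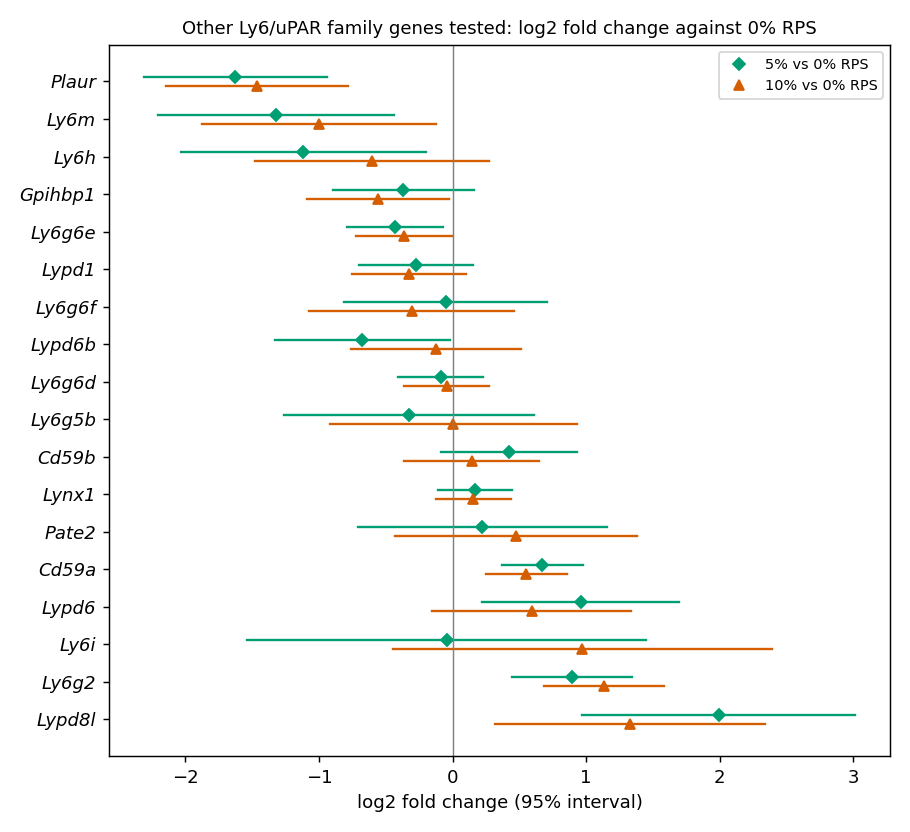
Log2 fold change against 0% RPS (horizontal axis) of the 18 other Ly6/uPAR family genes tested, at 5 and 10% RPS, with 95% intervals from the SE (n = 5 mice per diet). Plaur lies at -1.46 and Ly6g2 at 1.13 at 10% RPS. Lypd8l has the highest estimates, 1.33 at 10% (adjusted p = 0.169, edgeR) and 1.99 at 5% RPS (adjusted p = 0.087), and the rest spread to either side of 0.

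Genes that build, attach, remodel or cleave the GPI anchor were listed as 30, of which 27 were tested. None passed the threshold at 10% RPS, with 19 estimates below 0. The most abundant of them was Pgap6, at a mean of 237 CPM. The summed level of the list had means of 1281 CPM without starch (range 1210 to 1399) and 1135 CPM at 10% RPS (range 1077 to 1197) (p = 0.00794, two-sided exact permutation test, n = 5 and 5, adjusted 0.045, a call lost in 6 of 10 cases that left out 1 mouse). Its correlation was 0.74 with Psca, 0.74 with Ly6g6c, 0.56 with Ly6g and 0.50 with Ly6c1, and within diets 0.61, 0.49, 0.30 and -0.02. Psca, Ly6g and Ly6g6c were selected as lower with starch. For Ly6e, Ly6d, Lypd8, Ly6c2 and Ly6a r was between -0.21 and -0.07 over all mice and between -0.31 and 0.22 within diets. Its part in any member's level was not tested.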

How the data were processed

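Cecum RNA of 20 mice, 5 per diet by the treatment label, was sequenced from stranded mRNA libraries as single reads of 50 bases. The authors deposited raw counts per gene for 19887 genes, made with CLC Genomics Workbench on GRCm39, and the annotation release, the strand setting and the treatment of reads with several matches are not given in the sources used here. Whether mice of one diet shared a cage is not given either, so p-values measure the spread between these mice. GENCODE M39 matched 19827 of the genes.

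Counts were tested with edgeR 4.0.16 in R 4.3.3 (quasi-likelihood test, filter with a minimum count of 10 and total of 15, TMM, robust), all 4 diets in one fit, with Benjamini-Hochberg adjustment over 15348 genes. The threshold was an adjusted p of 0.05 and a fold change of 1.5, as in the study's methods, and the linear trend had no fold limit. The 95% intervals are normal ones from the SE. DESeq2 1.42.0, its size factors, no filter, no robust fit, only the diets compared, no fold limit, the rank of the dose, leaving out each mouse, and, added after the data were seen, a B cell covariate (log2 of the sum plus 0.1) were alternatives. Correlations used log2 CPM with a prior count of 2. On data simulated for 10% against 0% RPS over 15348 genes, the edgeR test found 96 of 100 genes with a 4-fold change, 76 of 100 with a 2-fold one, and 2 of 15148 without any. Totals of 14967798 to 42687283 counts set the precision, and the floor of 3 counts covers counting error only. The lowest chi-square per degree of freedom over 40 pairs of mice on one diet was 13.6, so all libraries were kept as separate samples.

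The members and lists were chosen with earlier results of these data known. Named were all 9 members, other family genes past the threshold, the 5 of them highest per kilobase, and the 5 genes most correlated with each of 6 members. Lypd8l was named in addition, for its estimates. Sequences came from GRCm39 and GENCODE M39. Figures were drawn with matplotlib 3.10.9.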

Additional observations from a re-analysis of the deposited data

Results flagged for a closer look

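In 56 groups of 5 mice (14 genes on 4 diets), 7 had 1 mouse set apart from the other 4 by a gap over 0.71 of the group's range. For independent, normal values this limit sets apart about 1 group in 20. CPM on a linear scale need not be normal and the genes share the same mice, so that rate does not hold here. No excess over chance is read from the number of groups. All 7 were high. Mouse 3 on 2% RPS held 3 of them, with Ly6d at 17.7 CPM (next 2.70), Ly6e at 181 CPM (next 102) and Ly6c2 at 2.37 CPM (next 0.722), and it also had the highest B cell marker sum of its diet, 285 CPM. Ly6d was likewise set apart in mouse 2 on 0% RPS at 14.7 CPM (next 2.99), whose B cell marker sum was 203 CPM. Mouse 1 on 0% RPS stood apart for Ly6c1 at 34.1 CPM (next 20.1) and Ly6m at 507 CPM (next 246). Ly6a was set apart in mouse 2 on 10% RPS at 108 CPM (next 63.4). The part of the B cell marker sum in these values was not tested.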

How the results depend on the processing

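Of the 6 members not selected on these counts, Ly6c1 alone passed at 10% RPS, and none did with only the 2 diets compared (adjusted p = 0.104) or with the B cell covariate (0.0789). None of the 6 passed at 5 or 2% RPS or for 10% against 5% RPS in any setting. For the trend Ly6c1 passed, except without the filter (0.0533) and with the covariate (0.0774). Counts over all 9 add Psca, Ly6g and Ly6g6c, whose direction the selection fixed, and are no test: they were 1 to 4 at 10% RPS, 0 to 2 at 5% RPS and 1 to 3 for the trend. The other family genes, 2 at 10% RPS, came to 1 without the filter, with only 2 diets and with the covariate, and at 5% RPS, 0, to 4 with DESeq2, 1 without the robust fit, 1 with only 2 diets and 2 with the covariate. Over all genes, edgeR called 160 at 10%, 30 at 5%, 0 at 2% RPS and 170 for the trend, against 369, 241, 5 and 710 by DESeq2, and the causes of these differences were not tested.

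Leaving out 1 mouse at a time gave 0 to 1 of the 6 members at 10% RPS and for the trend and 0 to 0 elsewhere. Over all 9 it gave 0 to 3 members at 10% RPS, 0 to 1 at 5%, 0 to 0 at 2% and for 10% against 5%, 0 to 3 for the trend, and 0 to 2, 0 to 3 and 0 to 0 other family genes at 10, 5 and 2% RPS. The difference of marker sums, 10% minus 0% RPS, then ran from -3920.3 to -3131 CPM for goblet cells, -23.3 to -16.6 for the urokinase system and -164 to -117 for the GPI anchor, each past the adjusted threshold in 4 of 10 cases, and from -0.29 to 1.52 for neutrophils and -0.13 to 1.09 for squamous epithelium. As a mean of log2 CPM, the difference was 0.91 for monocytes (adjusted 0.045), 0.19 for crypt base (adjusted 0.0337), -0.77 for small intestine (adjusted 0.0337), 0.32 for plasma cells and -0.051 for squamous epithelium, the last 2 of opposite sign to the sums. Single estimates that changed sign when 1 mouse was left out were, at 10% RPS, Ly6a (-0.56 to 0.16), and at 5% RPS, Ly6d (-0.10 to 1.89). At 2% RPS they were Ly6a (-0.60 to 0.24, and 0.00), Ly6c2 (-0.40 to 0.57), Ly6d (-1.45 to 1.67, and -0.03, -0.00 and -0.02), Ly6e (-0.21 to 0.28, and -0.02), Psca (-0.72 to 0.22, and 0.02) and Lypd8 (-0.085 to 0.011, and 0.0058). With the B cell covariate Ly6e at 10% RPS was -0.037.

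No paired analysis was possible because the labels' mouse numbers differ between diets. Depth limits Psca, Ly6g and Ly6c2 in particular, with 284, 1301 and 635 counts in all 20 mice.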
